A study of Bos indicus with 8 samples.

Results

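DEAD and DEAH box RNA helicases are the genes that the array platform named DDX or DHX followed by a number. That symbol alone set which genes belong, while the family was chosen with earlier results of these data known. The platform's annotation gave such a symbol to 62 probes for 46 genes, of 15229 genes with a symbol on the array, 31 of them DDX and 15 DHX. Enzymes of this family bind RNA and use ATP to unwind it or to strip proteins from it, and they are named for a short run of amino acids in their ATP-binding core. DEAD box members mostly open short RNA duplexes locally, whereas DEAH box members move along the strand. Between them they take part in every stage of an RNA's life, from transcription, splicing and ribosome assembly to nuclear export, translation and decay.

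Cumulus cells are the somatic cells that surround the oocyte, and the bovine cells were measured on 8 two-colour oligonucleotide arrays of RNA labelled as Bos indicus. Complexes of cumulus cells and oocyte were taken from 3 to 6 mm follicles of slaughterhouse ovaries and kept for 6 h in medium that held FSH (follicle-stimulating hormone, 0.5 µg/ml), oestradiol (1 µg/ml) and 10% fetal bovine serum. Both groups received that medium, and the treated group also received 3 mM adenosine, a purine nucleoside. The 4 adenosine pools and 4 control pools, labelled as 10 per pool, were hybridised in pairs of the same replicate number, each pair on 2 arrays with the dyes exchanged. All arrays compare pools after culture, so lower and higher below refer to the control pools and not to a change over time. In pooled RNA, fewer cells of a type and less RNA per cell cannot be told apart.

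A probe was kept when at least 3 of a group's 4 pools exceeded, on each of their arrays, a detection level set from negative control spots. This kept 31948 of 43794 probes and left 12320 genes, 40 of the 46 helicases among them. Of those 40 helicases, 38 passed through both groups, DHX34 through the control pools only and DDX49 through the adenosine pools only. DDX4, DDX41, DDX54, DHX30, DHX35 and DHX38 had no kept probe and were not tested. On 7 arrays between 71.1% and 87.4% of probes were detected in each channel, against 45.4% and 41.3% on 1 array of pool pair 3, the one whose adenosine RNA carried Cy3. On that array the negative control spots, which set the detection level, had an SD of 15.1 in Cy3 and 11.1 in Cy5. On the others it was at most 3.91 and 2.15. Of 15 cumulus and granulosa marker genes 14 were measured, FSHR, AMH and FOXL2 among them. FOXL2 was near background, 0.47 (adenosine) and 0.56 (control) log2 units above the lowest detected level. Control pool 2 stood apart by oocyte transcripts. In pool pair 2, 7 of 15 oocyte marker genes had a probe with a log2 ratio below -0.9, against 0 in the other pairs, and the summed level of all oocyte marker probes was 5170 in control pool 2 against 2530 to 2690 in the other pools. Counts are therefore also given without replicate 2. The summed level of leukocyte marker probes was lower with adenosine in each pair, at 1090, 940, 1510 and 1750 in adenosine pools 1 to 4 against 1180, 961, 2160 and 1910 in the control pools. Of 5 measured leukocyte genes 1 was lower, CD68. The brightest probe of that list, for PTPRC, was not called (log2 ratio -0.24, SD 0.42) and ran from 0.17 in pair 2 to -0.82 in pair 3. The part of leukocytes in the helicase results was not tested. The number of arrays limits the precision.

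Most of the measured helicases were lower with adenosine. Of the 40 measured genes 24 were lower, 1 was higher and 15 were not called, by limma at an adjusted p under 0.05 over all kept probes. Lower helicases made up 60.0% of those measured. Among all 12320 measured genes 20.8% were lower and 21.7% higher, 42.4% in either direction, and among all kept probes 37.1% were called. The median log2 ratio of adenosine over control was -0.52 over the helicases and 0.00 over all genes, and 33 of the 40 helicases lay below 0. Falls ranged from 1.37-fold for DDX51 to 4.23-fold for DDX5. A log2 ratio of -1 or less was found for 9 helicases and for 7.79% of all genes, while 0 helicases and 3.64% of all genes reached a ratio of 1, a share near the background. In 18 of the 24 lower helicases every adenosine pool lay below every control pool. The share was similar among all genes called lower, at 1873 of 2558. Of all 12320 genes, 15.2% were called lower with this pattern. The helicases were chosen with earlier results of these data known, so these counts are a description of the family.

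**Figure D1:**
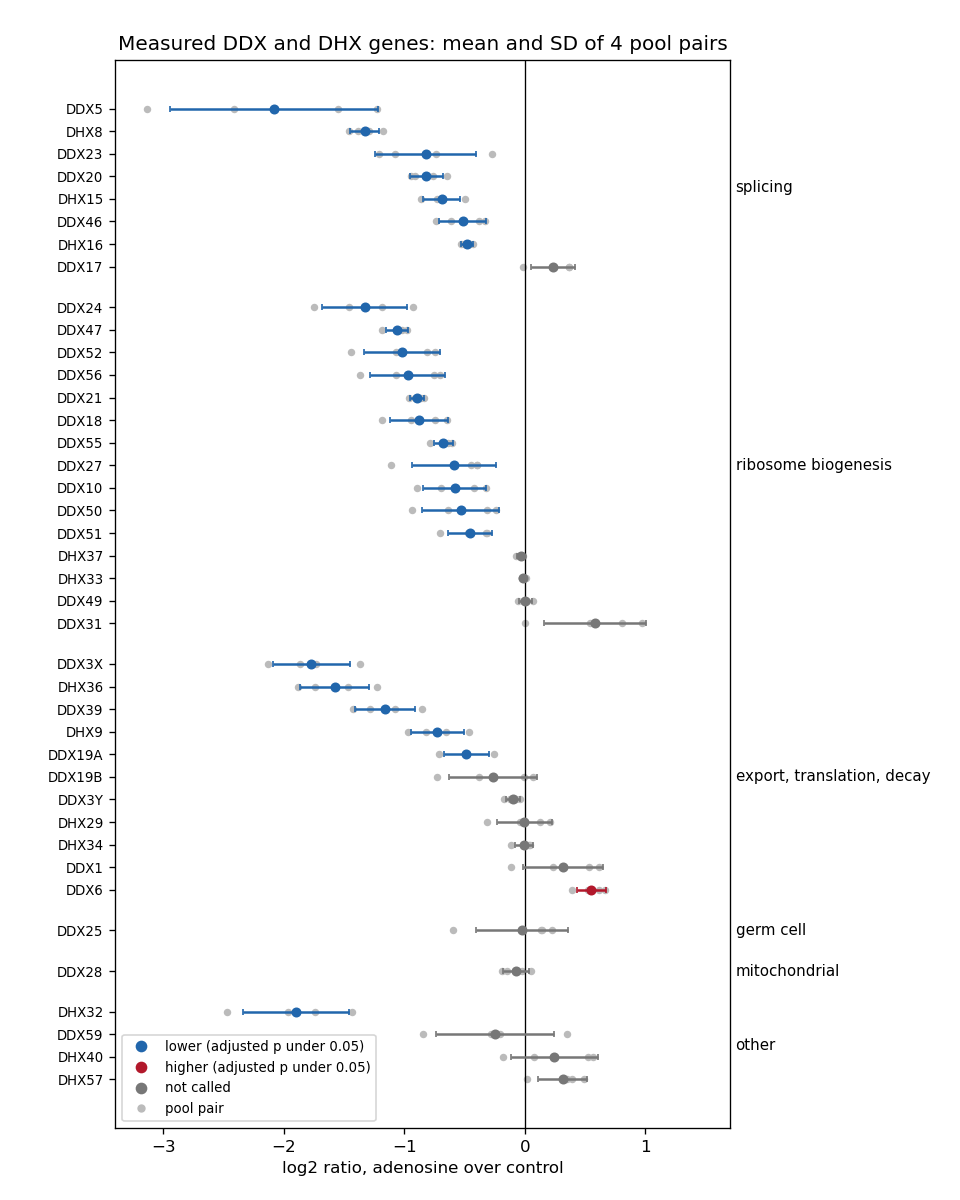
Log2 ratio of adenosine over control (x axis) for the 40 measured DDX and DHX genes, ordered by role. Coloured points are means with SD over 4 pool pairs, grey points the single pairs, and 24 genes lie on the lower side with a call against 1 on the higher side (DDX6).

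Each pool pair showed the shift. The median log2 ratio over the 40 helicases was -0.51, -0.71, -0.40 and -0.43 in pairs 1 to 4, while the median of all genes lay between 0.00 and 0.01. Without replicate 2, the pair with oocyte transcripts in its control pool, 21 helicases were lower and 5 higher. Of all 12320 genes, 2068 were lower and 2218 higher in that fit. Without replicate 3, the pair with the array of low detection, 21 were lower and 1 higher, beside 2212 and 2080 of all genes. Without replicate 4 the count of lower helicases was 18, beside 1594 of all genes. An unpaired fit of single-channel levels, with no replicate block, called 16 lower and 0 higher, beside 1850 and 1533 of all genes. Median centring in place of loess moved all called probes from 5955 higher and 5892 lower to 4709 and 7511, and still gave 24 lower helicases and 1 higher. It called 3292 of all genes lower and 1972 higher.

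The helicases of pre-mRNA splicing gave 7 lower genes of 8 measured, with 0 higher and a median log2 ratio of -0.75. Over all genes 20.8% were lower and 21.7% higher. On the brightest probes and over all pairs, the largest fall of the family was that of DDX5, a helicase of splicing and a coregulator of transcription (probe EMBV3_20125). Without replicate 2 the fall of DDX5 (-1.73) was smaller than those of DHX32 (-1.88) and DDX3X (-1.74), as it was with the mean of its probes (-1.25). In the control pools 1 to 4 its log2 intensity was 14.17, 14.35, 14.39 and 14.49, and in the adenosine pools 12.62, 11.22, 13.16 and 12.07. The control pools lay close together and the adenosine pools were spread, all below them. The log2 ratio was -2.08 ± 0.86 (SD, n = 4 pool pairs), a 4.23-fold fall (limma adjusted p = 0.0144), and it ran from -1.23 in pair 3 to -3.13 in pair 2. Without replicate 4 the ratio was -1.97 and did not pass (adjusted p = 0.0748). The adjusted p of DDX5 lay between 0.000307 and that value in the 15 alternatives tried (other settings or fewer pools).

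DHX8, which in yeast releases the finished mRNA from the spliceosome, was steadier across pairs (probe EMBV3_17444). Its log2 intensity was 9.89, 8.96, 9.27 and 8.95 in control pools 1 to 4 and 8.60, 7.78, 7.89 and 7.49 in the adenosine pools, which did not overlap. The fall was 2.51-fold (log2 ratio -1.33 ± 0.12, SD, n = 4, limma adjusted p = 0.000672). DDX20, a member of the SMN complex that assembles spliceosomal small nuclear ribonucleoproteins, had a ratio of -0.82 ± 0.14, or -1.28 with a background offset of 0. DHX15, which takes spent spliceosomes apart, stood at -0.69 ± 0.15. DDX46, which acts at the branch site, stood at -0.51 ± 0.19. Its 2 dye orientations differed, at -0.79 where Cy5 marked adenosine and -0.24 where Cy3 did. Fitted on the latter alone DDX46 did not pass (adjusted p = 0.0546 in limma), and with median centring it stood at -0.86. DHX16, which activates the spliceosome, gave -0.48 ± 0.05. DDX20, DHX15 and DHX16 were not called in the unpaired fit.

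DDX23, a helicase of the U5 small nuclear ribonucleoprotein, was less even, with ratios from -0.27 in pair 1 to -1.21 in pair 2 and a mean of -0.82 ± 0.42 (adjusted p = 0.026). It was not called without replicate 2 (-0.69), 3 (-0.85) or 4 (-0.74), nor in the unpaired fit. The splicing member that was not called was DDX17, the closest relative of DDX5, at 0.24 ± 0.18 (adjusted p = 0.0821). DDX17 was called higher without replicate 2 (0.32, adjusted p = 0.0206), from the Cy5 orientation alone (0.39) and in the authors' value table (0.43), and stood at -0.07 with median centring. Its adjusted p ranged between 0.00552 and 0.978 in these and the other alternatives. On the brightest probes, the DDX5 ratio less the DDX17 ratio lay between -1.60 and -3.12 on the log2 scale in the 4 pairs.

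Helicases of ribosome assembly, most of which work in the nucleolus on precursor ribosomal RNA, gave 11 lower genes of 15 measured and 0 higher, with a median log2 ratio of -0.59. The shares over all genes were 20.8% lower and 21.7% higher. The medians of this group by pair lay between -0.61 and -0.70, closer together than those of the splicing group, which ran from -0.57 to -0.90. DDX24, which takes part in making the large subunit (probe EMBV3_38738), had log2 intensities of 8.99, 8.91, 7.77 and 7.78 in control pools 1 to 4 and 7.53, 7.16, 6.85 and 6.59 in the adenosine pools. Pools 1 and 2 were higher than pools 3 and 4 in both groups, and the groups did not overlap. The fall of DDX24 was 2.51-fold (-1.33 ± 0.35, SD, n = 4, limma adjusted p = 0.00473). DDX47, needed for processing of the small subunit's ribosomal RNA (probe EMBV3_18235), had 9.32, 9.27, 9.05 and 9.06 in control and 8.26, 8.29, 8.03 and 7.88 with adenosine. This was a fall of 2.09-fold with little spread between pairs (-1.06 ± 0.09, adjusted p = 0.000664 in limma).

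DDX21, which couples transcription and processing of ribosomal RNA, had the smallest adjusted p of the family (0.000529 in limma), with a ratio of -0.89 ± 0.06 and between -0.84 and -0.96 in the single pairs. Its paralog DDX50 had a ratio of -0.53 ± 0.32 (adjusted p = 0.0402) and was not called without replicate 1 (-0.40), 2 (-0.63), 3 (-0.50) or 4 (-0.60), nor without the filter, in the Cy5 orientation alone or in the unpaired fit. The other members are known mainly from their yeast counterparts in ribosome assembly. DDX52 had a ratio of -1.02 ± 0.32, DDX56 of -0.97 ± 0.31, DDX18 of -0.88 ± 0.24 and DDX55 of -0.68 ± 0.08. With a background offset of 0 the falls were larger for DDX56 (-1.55), DDX18 (-1.49) and DDX55 (-1.13), whose probes were dim.

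DDX10 had a ratio of -0.58 ± 0.26 but was not called without replicate 4 (-0.54) or in the authors' value table (-0.37), and stood at -0.94 with median centring. DDX51 (-0.45 ± 0.18, or -0.69 with an offset of 0) was not called without replicate 1 (-0.45, adjusted p = 0.0557 in limma). DDX27 had a ratio of -0.59 ± 0.35, with -1.11 in pair 1 against -0.40 to -0.45 in the others. Without replicate 1 it was still called (-0.41, adjusted p = 0.00702 in limma), but not without replicate 2 (-0.65), 3 (-0.64) or 4 (-0.65), without the filter or in the unpaired fit. With an offset of 0 DDX27 stood at -0.89. DDX31 stood at 0.58 ± 0.42 and was not called (adjusted p = 0.0668). Its ratio was 0.00 in pair 2 and between 0.54 and 0.97 in the others, and it was called higher without replicate 2 (0.77, adjusted p = 0.0173) and in the authors' value table (0.72). Its adjusted p lay between 0.00675 and 0.381 in the alternatives. DHX37, DHX33 and DDX49 had ratios between -0.03 and 0.00.

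**Figure D2:**
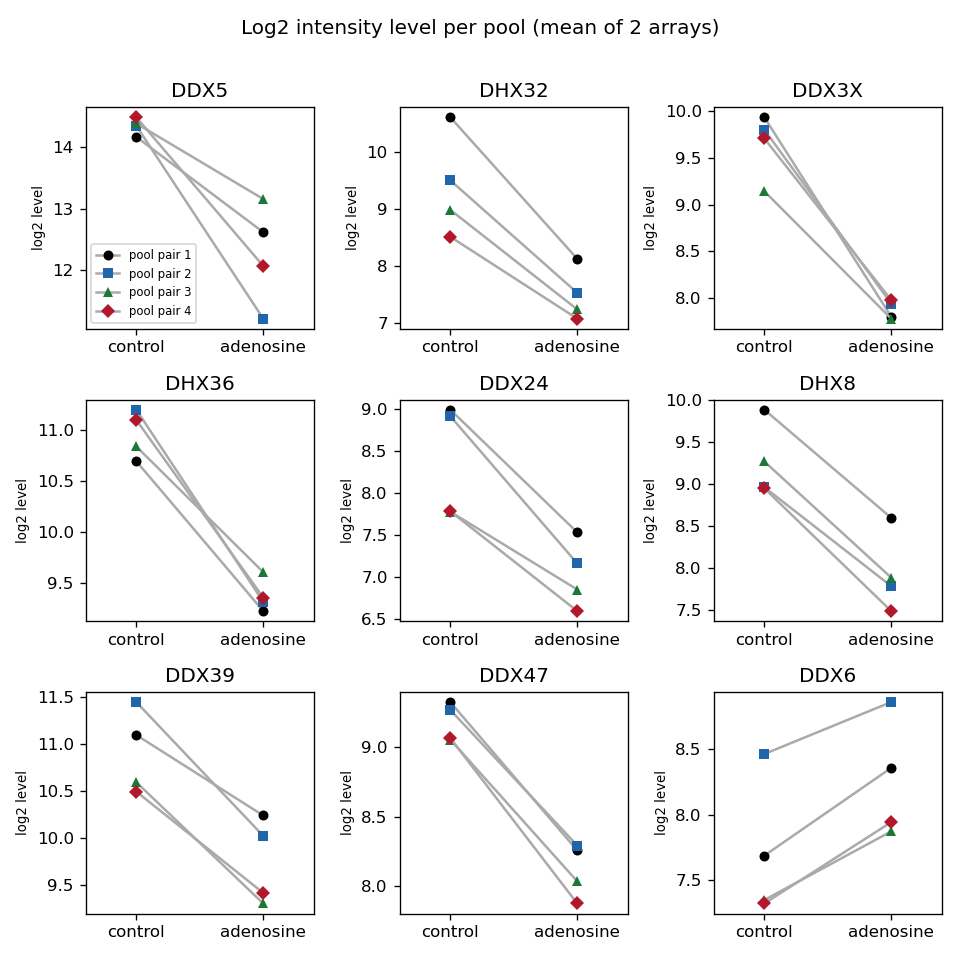
Log2 intensity per pool (y axis, mean of 2 arrays) in control and adenosine for the 8 helicases with the largest falls that had 1 sign in all pairs, and for DDX6. Lines join the pools of a pair, and the 8 falls show no overlap between groups, whereas the DDX6 pools overlap although each pair rose.

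Helicases of nuclear export, translation and decay moved in both directions, with 5 lower, 1 higher and 5 not called of 11 measured and a median log2 ratio of -0.26. Among all genes 20.8% were lower and 21.7% higher. DDX3X, an X-linked helicase that helps ribosomes start on mRNAs with structured leaders (probe EMBV3_43082), had 9.94, 9.80, 9.14 and 9.71 in control pools 1 to 4. In the adenosine pools it had 7.80, 7.94, 7.78 and 7.98, a narrow band well below the control pools. The fall was 3.42-fold (-1.77 ± 0.32, SD, n = 4, limma adjusted p = 0.00199). DHX36, which unwinds four-stranded guanine structures in RNA and DNA (probe EMBV3_36862), had 10.69, 11.20, 10.84 and 11.10 in control and 9.23, 9.32, 9.61 and 9.36 with adenosine. The groups did not overlap, and the fall was 2.99-fold (-1.58 ± 0.29, adjusted p = 0.00206 in limma). DDX39, an export factor of the kind that loads adaptor proteins onto mRNA (probe EMBV3_08794), had 11.10, 11.45, 10.59 and 10.50 in control and 10.24, 10.02, 9.31 and 9.42 with adenosine. It fell 2.24-fold (-1.16 ± 0.25, limma adjusted p = 0.00293), and again no adenosine pool reached a control pool.

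DHX9, a helicase of double-stranded RNA with roles in transcription and translation, had a ratio of -0.73 ± 0.22 but was not called in the unpaired fit. DDX19A, a helicase of the nuclear pore, had a ratio of -0.49 ± 0.19, or -0.82 with median centring. It was not called without replicate 1 (-0.48) or 4 (-0.49), nor in the unpaired fit. DDX19B, its close paralog, stood at -0.26 ± 0.37 and was not called. Probes of such near-identical genes may share signal. DHX29, which scans structured leaders in translation initiation, stood at 0.00 ± 0.23 and DHX34, of nonsense-mediated decay, at 0.00 ± 0.08. DDX1, of the tRNA ligase complex, had a ratio of 0.32 ± 0.33, with -0.11 in pair 2. It was called higher without replicate 2 (0.46, adjusted p = 0.043), from the Cy5 orientation alone (0.41) and in the authors' value table (0.48), and stood at -0.04 with median centring. The adjusted p of DDX1 lay between 0.0184 and 0.839 in the alternatives.

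DDX6, which represses translation and promotes decapping of mRNAs, was the helicase that was higher (probe EMBV3_20517). Its log2 intensity was 7.69, 8.46, 7.35 and 7.32 in control pools 1 to 4 and 8.36, 8.86, 7.87 and 7.94 with adenosine. The groups overlapped, since control pool 2 was above adenosine pools 1, 3 and 4, but each pair rose. The log2 ratio was 0.55 ± 0.12 (SD, n = 4), a 1.47-fold rise (limma adjusted p = 0.00348), and 0.32 with median centring. The unpaired fit did not call it (adjusted p = 0.286), and the other kept probes of DDX6 stood below 0, so that the mean of its probes was -0.02 (adjusted p = 0.838). That was the largest adjusted p DDX6 had in any alternative, and 9.62e-05 was the smallest.

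One probe is annotated to DDX3Y, the Y-linked copy of DDX3X, although ovaries carry no Y chromosome, and which transcript it read was not checked. Its log2 intensity lay between 6.28 and 6.48 in all 8 pools, and its ratio was -0.10 ± 0.06, against -1.77 for DDX3X. DDX3Y was detected in 7 of 8 channels of either group. The probe lay within 1 log2 unit of the lowest level measured above background, as did DDX25, DDX28, DDX49, DHX33, DHX34 and DHX37. These 7 helicases had ratios between -0.10 and 0.00 and were not called. The limit of 1 log2 unit was chosen after the values were seen. The background offset makes the ratios of dim probes smaller. With an offset of 0, DDX28 stood at -0.17, DHX37 at -0.11 and DHX33 at -0.04. DHX34 stood at -0.01, DDX49 at 0.02 and DDX25 at 0.05 in that setting. None of these genes was called there. The part of the offset in their small ratios was not tested. Without background correction (-0.15, adjusted p = 0.0437) and with an offset of 0 (-0.29, adjusted p = 0.0418) DDX3Y was called lower, while other alternatives gave adjusted p values of up to 0.209.

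Among the 4 measured helicases outside these roles, DHX32, a DEAH box protein whose function is little known, fell (probe EMBV3_00089). Its log2 intensity was 10.60, 9.50, 8.98 and 8.51 in control pools 1 to 4 and 8.13, 7.53, 7.24 and 7.08 with adenosine. The pools of each group were widely spread, and no adenosine pool reached a control pool. The fall was 3.74-fold (-1.90 ± 0.44, SD, n = 4, limma adjusted p = 0.00337). DHX57 had a ratio of 0.31 ± 0.20 (adjusted p = 0.0529) and was called higher without replicate 1 (0.41, adjusted p = 0.0122), in either dye orientation alone, with the stricter filter and in the authors' value table (0.50), but stood at 0.00 with median centring. Its adjusted p lay between 0.00565 and 0.981 in the alternatives. DHX40 (0.25 ± 0.36) and DDX59 (-0.25 ± 0.49) were not called, and their ratios changed sign between pairs. DDX28, of mitochondrial ribosome assembly, had a ratio of -0.07 ± 0.11.

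The array held 2 germ cell helicases, and both were highest in control pool 2. DDX4, the vasa protein of the germ line and a gene of the oocyte marker list, was not kept by the filter. Its log2 intensity was 6.53 in control pool 2 and between 6.13 and 6.20 in the other 7 pools. DDX25, a helicase of male germ cells, had 7.003 in control pool 2 and between 6.18 and 6.42 in the others. Over all pairs DDX25 had a ratio of -0.02 ± 0.38 and was not called, and without replicate 2 it was called higher (0.17, adjusted p = 0.0457 in limma, with adjusted p up to 0.979 in the other alternatives). In pair 2 the ratio was -0.37 for DDX4 and -0.60 for DDX25, while the other pairs gave 0.01 to 0.07 and 0.13 to 0.23. In the same pair the zona pellucida gene ZP4 had a ratio of -1.83, the oocyte transcription factor FIGLA -1.89 and KPNA7, an oocyte importin, -2.13 on one probe. These markers lay between -0.02 and 0.08 in the other pairs and are named after their values were seen. The part of oocyte RNA in the falls of other helicases was not tested. The lowest ratio of any oocyte marker probe was -0.13, -3.01, -0.70 and -0.43 in pairs 1 to 4. The medians of the 40 helicases by pair were those given above, with the largest fall in pair 2.

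**Figure D3:**
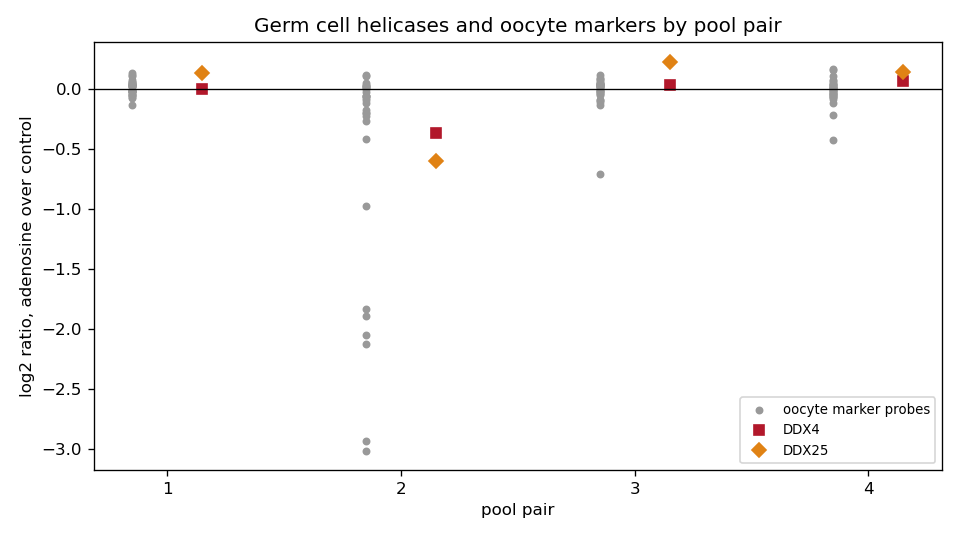
Log2 ratio of adenosine over control (y axis) in each pool pair (x axis) for DDX4, DDX25 and the probes of the other oocyte marker genes. In pair 2 both helicases and several marker probes lie below 0, the lowest at -3.01.

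Several probes were kept for 7 of the helicases, and they did not always tell the same story. Of the 3 probes of DDX5, the brightest had a ratio of -2.08, the next -1.43 ± 0.89 (adjusted p = 0.0448) and the dimmest -0.23 ± 0.40, which was not called. The mean of the 3 was -1.25. DDX46 had 2 probes that were lower, at -0.51 and -0.58 ± 0.09, and 1 that was higher, at 0.23 ± 0.12 (adjusted p = 0.0339 in limma), with a mean of -0.29. DDX47 had a second probe at -0.02 ± 0.05, which brought its mean to -0.54, and DDX18 a second at -0.21 ± 0.14, also with a mean of -0.54. For DDX17 the 3 probes stood at 0.24, -0.10 and -0.13, the second of them called lower (adjusted p = 0.0491). For DDX6 the other 2 stood at -0.12 and -0.49 and were not called. All 4 probes of DHX40 lay between -0.03 and 0.25 without a call. Where these probes lie along their transcripts was not analysed here. Taking the mean of a gene's probes gave 24 lower helicases and 0 higher, beside 2617 and 2667 of all genes.

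**Figure D4:**
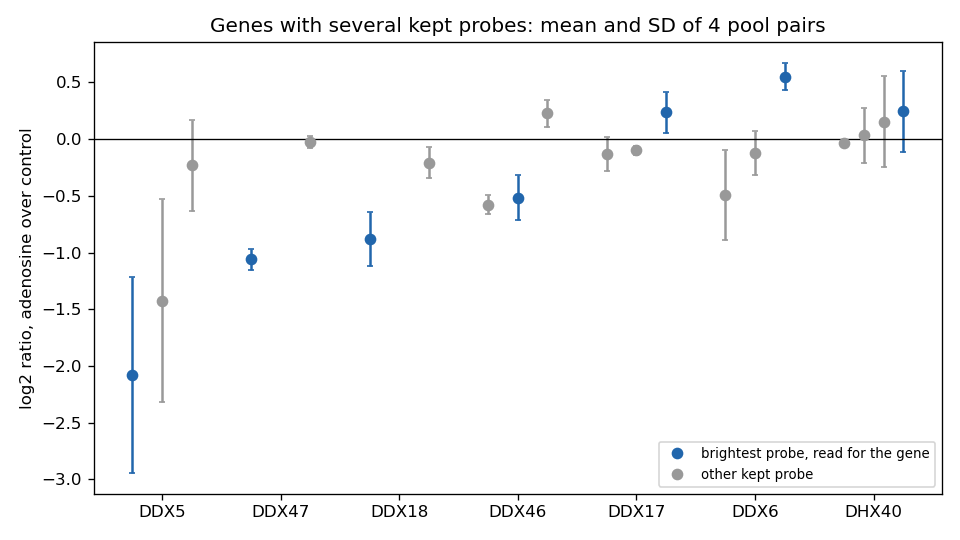
Log2 ratio of adenosine over control (y axis, mean and SD of 4 pool pairs) for each kept probe of the 7 helicases with several. The brightest probe, in blue, was read for the gene. The DDX5 probes span -2.08 to -0.23, and the DDX46 and DDX6 probes lie on both sides of 0.

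The dye orientation changed the size of some ratios and the direction of none of the 25 calls. Where Cy5 marked adenosine, the median of the 40 helicases was -0.62, and 33 lay below 0. Where Cy3 marked it, the median was -0.42, and 29 lay below 0. Each orientation was on a slide of its own, so slide and orientation cannot be told apart, and each gave 23 lower helicases when fitted alone. Of all genes, 2924 were lower in the Cy5 orientation and 2881 in the Cy3 orientation. In the Cy5 orientation DDX5 stood at -1.81, against -2.36 in the Cy3 orientation, and DDX39 stood at -1.37 and -0.95. DDX3X (-1.66 and -1.89), DHX36 (-1.62 and -1.54) and DDX21 (-0.87 and -0.91) were closer between the orientations.

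**Figure D5:**
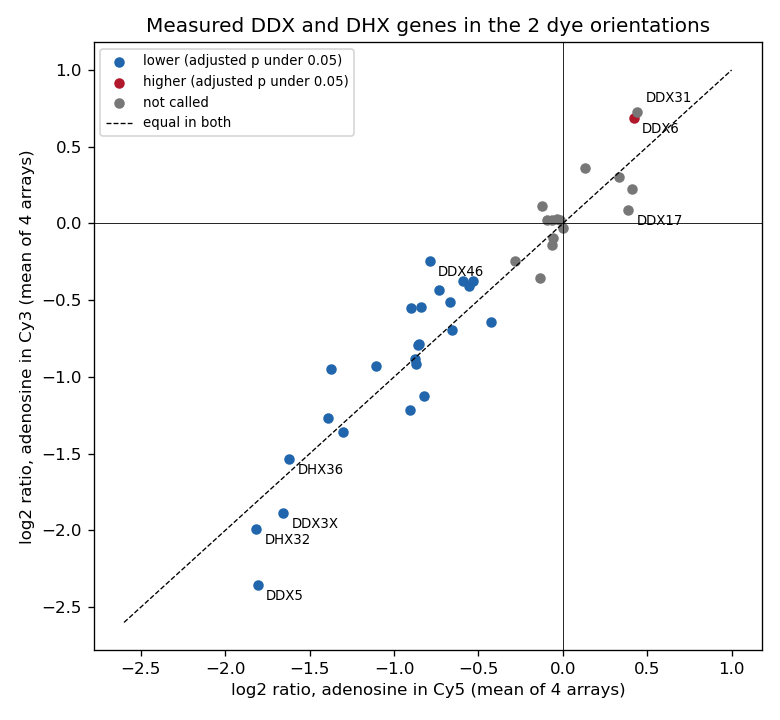
Log2 ratio with adenosine in Cy3 (y axis) against the log2 ratio with adenosine in Cy5 (x axis), each the mean of 4 arrays, for the 40 measured helicases. The dashed line marks equal ratios, and the 24 lower genes lie below 0 in both orientations.

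Close relatives within the family were compared in 7 pairs that could be measured. The design of 4 pool pairs cannot give an exact two-sided sign-flip permutation p under 0.125, so none could pass. The smallest such p after Benjamini-Hochberg adjustment over the 7 was 0.146. On the brightest probes DDX5 lay below DDX17 by 2.32 ± 0.75 on the log2 scale (SD, n = 4), lower in 4 of 4 pairs. The means of their kept probes lay closer together, at -1.25 for DDX5 and 0.00 for DDX17. DHX36 lay below DHX57 by 1.89 ± 0.40 and DDX3X below the probe annotated to DDX3Y, which was near background, by 1.67 ± 0.35, both in 4 of 4 pairs. DHX32 lay below DHX15 by 1.21 ± 0.41 and DDX21 below DDX50 by 0.36 ± 0.29, also in 4 of 4. On its brightest probe DDX18 lay below DDX10 by 0.30 ± 0.09 in all pairs. With the mean of its 2 kept probes DDX18 stood at -0.54, above the -0.58 of DDX10. DDX19A lay below DDX19B by 0.22 ± 0.33 and in 3 of 4 pairs (exact p = 0.25).

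Helicases of the same or neighbouring families that carry other symbols were also mostly lower where called. Of 15 measured, 8 were lower, 0 higher and 7 not called, with a median log2 ratio of -0.26, against 20.8% lower and a median of 0.00 over all genes. The 4 with the smallest p were SUPV3L1, HELZ, AQR and EIF4A3. SUPV3L1, an RNA helicase of the mitochondrial matrix, had a ratio of -0.96 ± 0.12 (adjusted p = 0.00116 in limma) and HELZ, a zinc finger helicase, -1.09 ± 0.17. The other kept probes of HELZ stood at -0.67, called lower, and -0.08, which was not called. AQR, which binds introns in the spliceosome, stood at -0.68 ± 0.20, and EIF4A3, the helicase of the exon junction complex, at -0.66 ± 0.27. EIF4A1 and EIF4A2, named after their values were seen, are the helicases of cap-dependent initiation. EIF4A1 fell (-0.60 ± 0.24), while EIF4A2 stood at 0.50 ± 0.46 and was not called.

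Proteins that bind or stimulate these helicases gave 15 lower, 1 higher and 15 not called of 31 measured, with a median log2 ratio of -0.29, against 20.8% lower and 21.7% higher over all genes. PDCD4, an inhibitor of the EIF4A helicases, had a ratio of -0.86 ± 0.10 (adjusted p = 0.00111 in limma). MAGOH and CASC3, partners of EIF4A3 in the exon junction complex, stood at -0.88 ± 0.16 and -0.66 ± 0.15. The other kept probes of CASC3 stood at -0.71, called lower, and 0.29, which was not called. NUP214, the nucleoporin that docks the DDX19 helicases, had a ratio of -0.74 ± 0.15. Its other kept probes had smaller falls, at -0.33 and, near background, -0.09, both called lower. Of the 6 listed partners of DDX6, named after their values were seen, the decapping factors EDC3 (-0.36 ± 0.10) and PATL1 (-0.51 ± 0.21) and the partner LSM14A (-0.60 ± 0.29) fell. CNOT1 (-0.45 ± 0.31), LSM14B (0.09 ± 0.06) and EIF4ENIF1 (0.13 ± 0.49) were not called, nor were the other probes of PATL1, at -0.06 and -0.10. The member that was higher was THOC1, an export factor, at 0.25 ± 0.13 and also named after its value was seen. Its other kept probes, at -0.08 and 0.03, were not called. AGGF1 and EIF4H were not called on their brightest probes. Their other kept probes were called higher, at 0.74 and 0.21 for AGGF1 and 0.25 for EIF4H.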

How the data were processed

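Per the labels' protocols, pooled cumulus RNA went through 2 rounds of T7 amplification before coupling to Cy3 or Cy5. For each of 45220 spots the authors deposited raw intensity values, which per the file headers are foreground means and local background medians in the 532 nm and 635 nm channels, read here as Cy3 and Cy5. They were neither subtracted nor normalized. The software and any genome build are not given in the sources used here. The authors' value table, an alternative here, holds deposited log2 ratios. Against the scanner values it ran as adenosine over control on every array (slope 0.978 to 1.05, probes with a mean log2 brightness over 9). Its array medians lay between 0.00566 and 0.0524, and how the authors normalized and centred it is unknown.

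Background was corrected with normexp (offset 50), which makes the ratios of dim probes smaller, and loess normalized every array, giving the 1426 control spots no weight (limma 3.58.1, R 4.3.3). The 2 arrays of a replicate number were averaged to 4 pool pairs, and the mean ratio was tested with lmFit and eBayes against 0, adjusted over 31948 probes by Benjamini-Hochberg. The detection level was the mean plus 2 SD of 153 negative control spots. The brightest kept probe stands for a gene. Levels are single-channel values after Aquantile scaling. The fit was tested on simulated data.

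From the labels, arrays that share a replicate number were treated as holding the same pair of RNA pools. Their deviations from the orientation means correlated between 0.763 and 0.925 across probes. The labels do not tie pools to separate animals. The p-values therefore measure only how these pools vary, which may be technical. Of the 46 helicase symbols 42 were found in a RefSeq gene table of Bos indicus, and DDX3Y, DDX19A, DDX19B and DDX39 keep the platform's name. The helicases, the lists and the pairs of relatives were chosen with earlier results of these data known. Every measured helicase may be named, with full values for the 8 largest falls and 8 largest rises among those called with 1 sign in all 4 pairs (1 rise met this), and of the other lists the 4 members with the smallest p. No sequences are shown.

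Of the other cell types' marker lists, 0 of 11 measured oocyte genes were lower and 1 higher, 1 of 5 leukocyte genes was lower, and 0 of 1 theca and 0 of 3 endothelial and blood genes were called. Of 14 cumulus and granulosa markers 5 were higher and 2 lower. In all, 15 alternatives were tried.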

Additional observations from a re-analysis of the deposited data

Results flagged for a closer look

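For 3 of the 40 measured helicases 1 pool pair lay far from the other 3 by Dixon's test, and chance alone would mark about 5% of such groups. DDX25 had a log2 ratio of -0.60 in pool pair 2 and between 0.13 and 0.23 in the others, and pair 2 is the pair whose control pool held oocyte transcripts. DDX27 had a ratio of -1.11 in pool pair 1 against -0.45 to -0.40 in the others. DHX33 had 0.0121 in pool pair 2 against -0.03 to -0.02, values close to background.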

How the results depend on the processing

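All 24 lower helicases stayed below 0 under each of the 15 alternatives, and 12 of them were called lower in all of these. The count of lower helicases was between 22 and 25 under the alternatives that kept all pairs, except 16 with no replicate block, and between 18 and 21 when 1 replicate was left out. The count of higher helicases was 1 in the reported fit, 5 in the authors' value table, 3 with the stricter filter, 0 when all probes of a gene were averaged, 4 with adenosine in Cy5 alone, 3 with adenosine in Cy3 alone, 3 with the replicate block and a dye term, 0 with no replicate block, and between 1 and 5 with 1 replicate left out. The median over the helicases moved from -0.52 to -0.71 with an offset of 0, -0.78 with median centring and -0.68 with the stricter filter, which tested 33 of them, and lay between -0.47 and -0.56 with 1 replicate left out. Over all probes 11847 were called, 7496 with no replicate block and between 6568 and 9688 with 1 replicate left out. Of all genes, between 1594 and 3292 were lower and between 1486 and 3080 higher under the alternatives. These counts are of 12320 genes, or 15229 with no filter and 7701 with the stricter filter. DDX6 turned to -0.0216 when its probes were averaged. DDX25 turned to 0.17 and was called higher without replicate 2 (limma adjusted p = 0.0457), the highest of its values with 1 replicate left out, and the lowest was -0.106. The replicate block with a dye term changed the calls of DDX31 and DHX57 to higher and no other helicase's. An offset of 0 enlarged 6 of the 24 falls by over 1.5 times. The cause of these shifts was not tested. Probes close to background limit what could be seen for 7 helicases.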

Other observations

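BAT1, an older symbol of the export helicase DDX39B and therefore outside the family's symbol rule, was looked at after the other values were seen. It had a log2 ratio of -0.28 ± 0.51 (SD, n = 4 pool pairs) and was not called (limma adjusted p = 0.368), with -0.90 in pair 1 and 0.13 in pair 4, whereas DDX39 fell in every pair. SUPV3L1 had 3 kept probes, at -0.92, -0.96 and -1.04, all called lower, so its probes differed less than those of DDX5 or DDX6.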
